A study of Macaca mulatta with 13 samples.

Results

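The miR-130 and miR-301 family is a group of microRNAs (miRNAs, short RNAs that repress matching transcripts) with the members miR-130a, miR-130b, miR-301a and miR-301b. Rows of the deposited table were taken by name, with either arm of the hairpin, and for a name listed more than once the row with most counts would be kept. This gave 7 rows of the 909 named miRNAs, with no family name listed more than once. The total counts over all 13 libraries, which that choice uses, are given here as a description. They were 3183 for miR-130a-3p, 140 for miR-130b-3p, 115 for miR-130b-5p, 71 for miR-301a-3p, 2 for miR-130a-5p, 1 for miR-301b and 0 for miR-301a-5p.

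Small RNA came from muscle biopsies of the thigh (vastus lateralis) in rhesus monkeys (Macaca mulatta). The animals were on caloric restriction (CR, 8 samples) or on a control diet (Control, 5 samples), and the labels give no age, sex or duration of the diet. The series title names sarcopenia, in which muscle is lost with age, and its prevention by CR, and the comparison sets the diets against each other. Whether every sample is a separate animal is not spelled out in the labels, so p-values measure the spread between these samples.

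Members of this family share the seed, the stretch near the 5′ end that pairs with targets, on their 3p arms, as does miR-454. In human and mouse cells they are known to repress PPARG, the master regulator of fat cell formation, and miR-130a is known from endothelial cells and the growth of blood vessels. In the RefSeq annotation of the T2T-MMU8v2.0 assembly, used here for neighbours only, MIR130B and MIR301B were each other's nearest gene. MIR130A stood apart from both. MIR301A and MIR454 lay within 2 overlapping genes, PRR11 and SKA2, of which SKA2 belongs to the chromosome segregation machinery. Because the family is defined by sequence and its members differ by few bases, reads of single members may be divided differently by other counting methods.

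The libraries held 1154326 to 5392611 counts in named miRNAs. Levels below are CPM (counts put on the scale of a library of fixed depth) scaled with TMM factors. These correct for a few abundant miRNAs that take a differing share of a library. A count of 0 allows up to 3 counts, which is 0.556 to 2.60 CPM without TMM factors, depending on the library. With them, 3 counts in CR replicate 1 are 1.69 CPM. Of 11 rows of skeletal muscle miRNAs (miR-1, miR-133a, miR-133b, miR-206, miR-208b and miR-499) 10 had counts, with a summed level of 39220 to 80931 CPM in CR and 52313 to 58707 CPM in 4 of the Control libraries. Control replicate 4 stood apart, at 13529 CPM, and results that rest on it are given with and without it.

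In this muscle the family was almost wholly miR-130a-3p, the arm of miR-130a that carries the shared seed. Over all libraries it held 3183 of 3512 family counts, or 90.6% (95% exact binomial interval 89.6 to 91.6%, counting error only, since reads copied by PCR do not count molecules). The share was 89.3% in CR (87.6 to 90.8%) and 91.7% in Control (90.4 to 92.9%), or 89.1% in Control without replicate 4. Among all 909 miRNAs, of which 297 had no count in any library, it ranked 118 by mean CPM and took 0.00684% of all counts. Ligation and size selection differ between miRNAs, so that an order of counts need not be an order of molecules.

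The level of miR-130a-3p in CR ran from 29.2 CPM (replicate 1) through a median of 44.2 to 77.0 CPM (replicate 2). In Control it was 61.2, 54.9, 52.3, 134 and 69.1 CPM in replicates 1 to 5. The groups overlapped: 5 of 8 CR libraries lay below every Control library, 3 lay within the Control range, and CR replicate 2 exceeded 4 of the 5 Control libraries. Such a position, with at least 5 of 8 CR libraries below every Control library, was found for 5 of 263 miRNAs tested (1.90%). The cutoff equals the position of miR-130a-3p, which is among these 5, so the share is a description and not a test. The means were 48.4 ± 16.1 CPM in CR (SD, n = 8) and 74.4 ± 34.2 CPM in Control (SD, n = 5). Without Control replicate 4 the Control mean was 59.4 ± 7.49 CPM (SD, n = 4), and 1 CR library lay above the Control range.

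**Figure D1:**
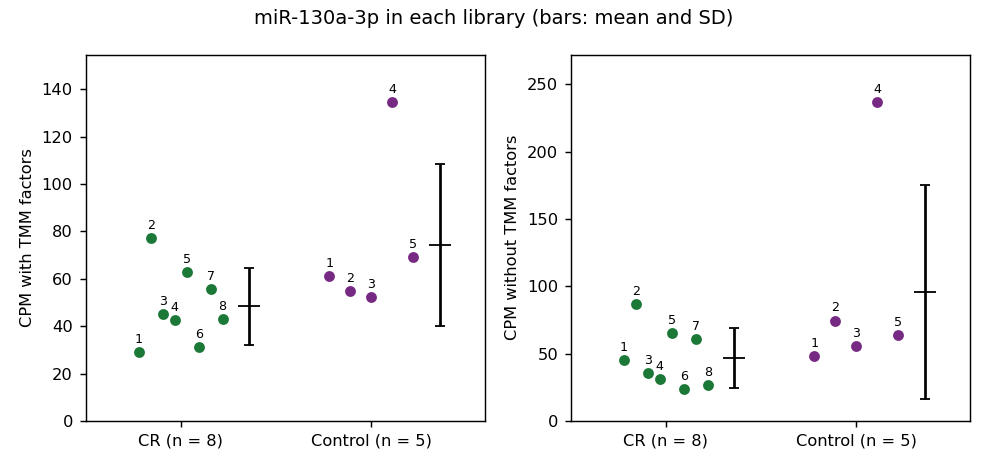
Level of miR-130a-3p in each library, as CPM with TMM factors (left) and as CPM without those factors (right). Each point is 1 library marked with its replicate number, and the bars show the mean and SD. Control replicate 4 lies highest in both panels, at 134 and 237 CPM, and the other libraries of the 2 groups overlap.

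The difference between the diets in miR-130a-3p did not pass the threshold, an adjusted p of 0.05. With all 13 samples its log2 fold change, CR over Control, was -0.62 ± 0.29 (SE; 95% interval -1.23 to -0.0146), with an unadjusted p of 0.0453 and an adjusted p of 0.985 in edgeR (quasi-likelihood test, Benjamini-Hochberg over all tested miRNAs). Over all 263 miRNAs tested, 0 passed (0%), DESeq2 and limma-voom also called 0, and edgeR gave 7 an unadjusted p under 0.05 (2.66%), of which 4 were lower in CR (1.52%). DESeq2 had 9 and limma-voom 7 at that unadjusted threshold. The median log2 fold change of all tested miRNAs was 0.0103.

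Control replicate 4 carried much of this difference. Without it the log2 fold change of miR-130a-3p was -0.29 ± 0.26 (SE; 95% interval -0.84 to 0.25) with an adjusted p of 0.969, and 6 of 8 CR libraries lay below the Control mean, against 7 of 8 with it. Of the 263 miRNAs tested without this library, 0 passed (0%), 6 had an unadjusted p under 0.05 (2.28%) and 0 of these were lower in CR. The median over all miRNAs was then 0.0604. With library totals in place of TMM factors the log2 fold change over all 13 samples was -1.03 ± 0.42, where the median of all miRNAs moved to -0.26.

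**Figure D2:**
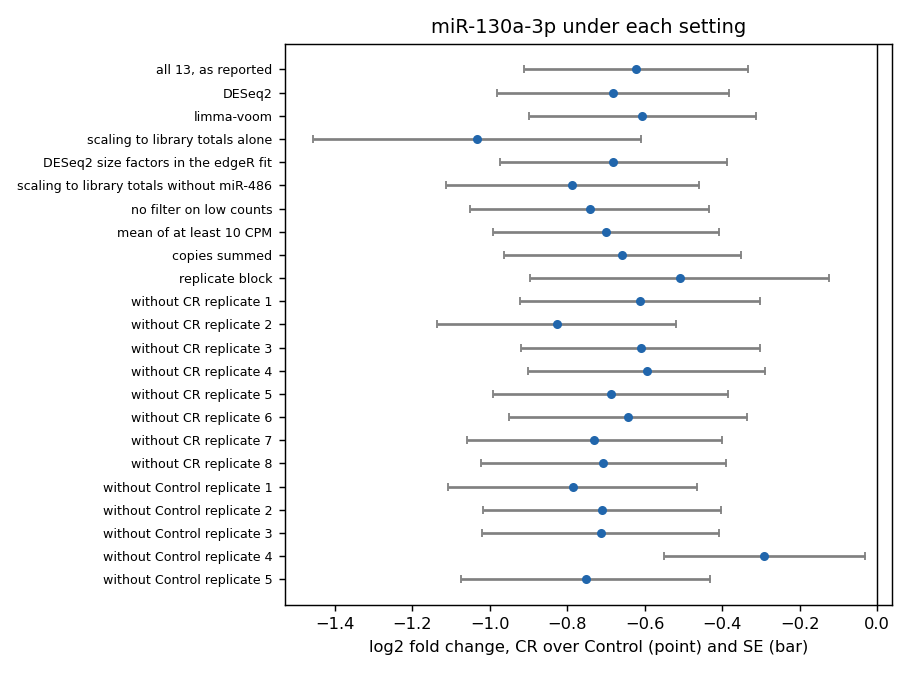
The log2 fold change of miR-130a-3p, CR over Control, under each way of testing, scaling and filtering and with each library left out. Points are estimates and bars are 1 SE. All values lie below 0, from -1.03 with library totals alone to -0.29 without Control replicate 4.

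The spread of miR-130a-3p among CR libraries was like that of other miRNAs. The SD of its log2 CPM in CR was 0.47, where the median over the 263 tested miRNAs was 0.49. Among the 4 Control libraries without replicate 4 its SD was 0.18, where the median was 0.44. The lowest raw count, 52 in CR replicate 1, carried a 95% Poisson interval of 38.8 to 68.2 counts. The highest, 1098 in Control replicate 4, had an interval of 1034 to 1165 counts.

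The second hairpin, miR-130b, gave few reads, and these came from both arms. The seed-bearing arm miR-130b-3p ran from 0.742 through a median of 2.34 to 3.16 CPM in CR. In Control it was at 1.50, 4.90, 3.08, 5.02 and 2.08 CPM in replicates 1 to 5. The groups overlapped, with Control replicates 2 and 4 above every CR library and the other 3 within the CR range. Its mean was 2.19 ± 0.86 CPM in CR (SD, n = 8) and 3.32 ± 1.60 CPM in Control (SD, n = 5), or 2.89 ± 1.49 CPM in Control without replicate 4.

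The other arm, miR-130b-5p, which does not carry the family seed, ran from 0.924 through a median of 2.16 to 2.91 CPM in CR. It was at 1.13, 3.87, 1.96, 3.67 and 1.67 CPM in Control replicates 1 to 5. Again Control replicates 2 and 4 lay above every CR library and the other 3 Control libraries within the CR range. The means were 1.99 ± 0.77 CPM in CR (SD, n = 8) and 2.46 ± 1.24 CPM in Control (SD, n = 5).

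The arm use of the 2 miR-130 hairpins was unlike. The 5p arm held 115 of 255 counts of miR-130b, or 45.1% (95% exact interval 38.9 to 51.4%), and 2 of 3185 counts of miR-130a, or 0.0628% (0.00761 to 0.227%). The 2 miR-130a-5p reads came from CR replicate 1 and Control replicate 5. For miR-301a the 5p arm had 0 of 71 counts, which allows a share of up to 4.23%. The 5p share of miR-130b averaged 48.2% ± 12.9 over CR libraries (SD, n = 8) and 42.5% ± 2.22 over Control libraries (SD, n = 5). This difference of 5.66 percentage points did not exceed the spread (two-sided exact permutation p = 0.374, n = 8 and 5). It was 3.02 points without CR replicate 1 and 3.61 points without CR replicate 6, which had 6 and 8 miR-130b counts. Single CR libraries ran from 28.6% (2 of 7 counts, replicate 3) to 66.7% (4 of 6 counts, replicate 1), and Control libraries from 38.9% (7 of 18) to 44.4% (4 of 9). Neither arm passed the filter on low counts, and this test was added after the counts were seen.

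The third detected hairpin, miR-301a, had 1 to 14 reads of its 3p arm in a library. In CR miR-301a-3p ran from 0.562 through a median of 1.55 to 2.62 CPM. In Control it was at 2.25, 1.03, 1.12, 0.735 and 2.08 CPM in replicates 1 to 5. All Control libraries lay within the CR range. The means were 1.61 ± 0.78 CPM in CR (SD, n = 8) and 1.44 ± 0.68 CPM in Control (SD, n = 5). Control replicate 4, where miR-130a-3p and miR-130b-3p were at their highest, held the lowest Control level of miR-301a-3p. Without TMM factors it was at 1.29 CPM, and Control replicate 3 was lower, at 1.19 CPM. In Control replicate 4 the ratio of miR-130a-3p to miR-301a-3p counts was 183, against 29.5 over the CR libraries summed and 38.4 over the other Control libraries summed. These ratios do not depend on the scaling of a library, but the first rests on 6 miR-301a-3p reads.

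The remaining rows were at the limit of detection. For miR-301b, which neighbours miR-130b, there was 1 read in all, in Control replicate 2, and that row carries no arm in its name. miR-301a-5p had no read in any library. At this depth no difference between the diets could be seen for miR-301b, miR-301a-5p or miR-130a-5p. miR-454-3p, which shares the seed and lies with miR-301a in SKA2 and PRR11, had 58 reads, at 1.34 ± 1.05 CPM in CR (SD, n = 8) and 1.16 ± 0.65 CPM in Control (SD, n = 5). It had 0 reads in CR replicate 8, and miR-454-5p had 0 in all libraries.

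**Figure D3:**
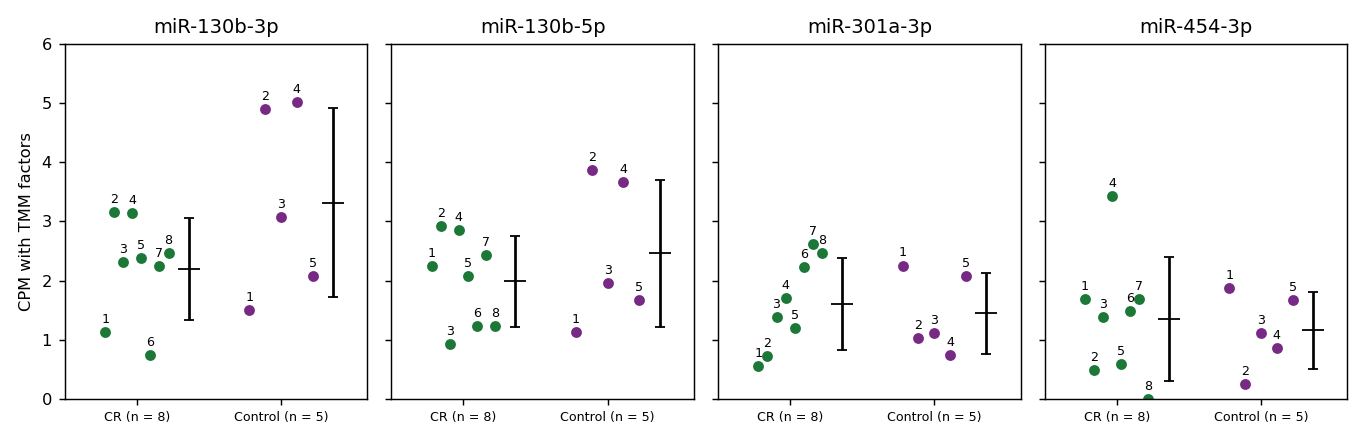
Levels of miR-130b-3p, miR-130b-5p, miR-301a-3p and the seed-sharing miR-454-3p in each library, as CPM with TMM factors. Points are libraries marked with their replicate number and bars show the mean and SD. Control replicates 2 and 4 are the highest for both arms of miR-130b, and for miR-301a-3p every Control library lies within the CR range.

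The order of levels was the same in all libraries at its top only. miR-130a-3p had more counts than miR-130b-3p in 13 of 13 libraries, 22.7 times as many in all. miR-130b-3p exceeded miR-130b-5p in 10 of 13 libraries, by a ratio of 1.22 in all, and exceeded miR-301a-3p in 8 of 13, with 2 ties. miR-130b-5p exceeded miR-301a-3p in 7 of 13. The means of these 3 low rows differed by less than the larger of their SDs within CR and, apart from miR-130b-3p against miR-301a-3p, within Control. Without Control replicate 4 that pair also differed by less than the larger SD, at 2.89 ± 1.49 CPM for miR-130b-3p and 1.62 ± 0.64 CPM for miR-301a-3p (SD, n = 4).

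Only miR-130a-3p passed the filter on low counts, and the low rows entered no call. In an edgeR fit of the 612 miRNAs with any count, added for these rows, the log2 fold change was -0.75 ± 0.47 for miR-130b-3p (95% interval -1.70 to 0.20), -0.45 ± 0.49 for miR-130b-5p (-1.44 to 0.53) and 0.19 ± 0.55 for miR-301a-3p (-0.92 to 1.29), all SE. Their adjusted p-values were 0.820, 0.865 and 0.962. Leaving Control replicate 4 out, this fit gave -0.43 ± 0.49, -0.15 ± 0.52 and 0.0647 ± 0.57 in the same order, with adjusted p-values of 0.908, 0.985 and 0.985. The intervals include differences of over 2-fold in at least 1 direction for each, so they do not show that the groups are alike.

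Markers of other cell types moved with miR-130a-3p in some libraries, and their part in its level was not tested. In bulk tissue, more cells of a type and more RNA per cell cannot be told apart. The 9 endothelial rows (miR-126, miR-221, miR-222, miR-424 and miR-503; 9 of 9 with counts) summed to 416 to 784 CPM in CR and 492 to 654 CPM in 4 of the Control libraries, against 948 CPM in Control replicate 4. The 4 fibroblast rows (both arms of miR-199a and miR-214; 4 of 4 with counts) summed to 487 to 1636 CPM in CR and 718 to 1421 CPM in the 4 Control libraries, against 2048 CPM in Control replicate 4.

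CR replicate 2, the CR library with the most miR-130a-3p, also had the highest CR sums of these lists, at 784 CPM for endothelium and 1636 CPM for fibroblasts. The fibroblast sum did not follow miR-130a-3p in every library: it was 1426 CPM in CR replicate 1, which had the least miR-130a-3p of all, and 1421 CPM in Control replicate 2, at 54.9 CPM of miR-130a-3p. In CR replicate 2 the sum over 7 leukocyte rows (miR-142, miR-150, miR-223 and miR-342, 7 of 7 with counts) was 790 CPM, the highest of the 13 libraries. The range was 278 to 790 CPM in CR and 333 to 490 CPM in the 4 Control libraries, with 701 CPM in Control replicate 4. For smooth muscle (4 of 4 rows of miR-143 and miR-145 with counts) Control replicate 4 was at 29892 CPM, within 13393 to 45620 CPM in CR and 10985 to 42294 CPM in the other Control libraries. For red blood cells (2 of 2 rows, miR-451 and miR-144) it was at 745 CPM, within 135 to 1510 CPM in CR and 138 to 1386 CPM in the other Control libraries.

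Among the endothelial rows, 5 were tested and 0 passed in either direction. The log2 fold change was below 0 for 4 of 5, where 48.3% of all 263 tested miRNAs were below 0, and without Control replicate 4 for 3 of 5, where 43.3% were. Their median was -0.21, and -0.0550 without Control replicate 4. The 4 tested fibroblast rows were below 0 in 4 of 4, with a median of -0.42, or -0.0939 without Control replicate 4, and the 6 tested skeletal muscle rows above 0 in 6 of 6, with a median of 0.43, or 0.17 without it. None of these passed. Without Control replicate 4 the skeletal muscle rows miR-133a (-0.0508), miR-133b-3p (-0.0201) and miR-499-5p (-0.13) were below 0. Of the other lists, 3 of 3 tested smooth muscle rows, 4 of 5 leukocyte rows and 1 of 1 red blood cell rows were below 0, with medians of -0.0870, -0.22 and -0.16 (-0.0230, -0.0396 and -0.18 without Control replicate 4), and 0 passed. Without that library miR-145-3p (0.0393), of smooth muscle, and miR-150-5p (0.0243), of leukocytes, turned above 0. miR-126, an endothelial miRNA that supports vessel integrity, was at 115 ± 29.4 CPM in CR (SD, n = 8) and 132 ± 54.2 CPM in Control (SD, n = 5), and its log2 fold change was -0.21 ± 0.27 (SE). miR-221-3p and miR-222-3p, a paralogous pair, had -0.19 ± 0.23 and -0.22 ± 0.28, and without Control replicate 4 these were -0.0550 and 0.0645. The edgeR adjusted p was 0.985 for each of these 3.

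miRNAs whose seed resembles that of the family, shifted by a base, were compared with it. These are miR-19, from the miR-17/92 cluster, and miR-148a, miR-148b and miR-152, which form a family. Of 9 rows, both arms counted, 6 were tested and 0 passed in either direction. miR-148a-3p was at 851 ± 205 CPM in CR (SD, n = 8) and 625 ± 189 CPM in Control (SD, n = 5), and its log2 fold change was 0.44 ± 0.24 (SE), or 0.56 without Control replicate 4. miR-148b-3p had 0.12 ± 0.20, miR-152-3p -0.27 ± 0.25 and miR-19b -0.26 ± 0.54, and edgeR's adjusted p was 0.985 for all 4. Both arms together, the 9 rows summed to 775 to 1435 CPM in CR, 666 to 1091 CPM in 4 Control libraries and 1132 CPM in Control replicate 4. Most of this was miR-148a-3p, which far exceeded miR-130a-3p. Not every row did: miR-19b was lower than miR-130a-3p, with means of 5.36 CPM in CR and 6.53 CPM in Control. miR-152-3p had means of 71.9 and 86.7 CPM, against 48.4 and 74.4 CPM for miR-130a-3p.

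The miR-27 miRNAs also repress PPARG, and their 3p arms were more abundant than miR-130a-3p. miR-27b-3p was at 10060 ± 2070 CPM in CR (SD, n = 8) and 8748 ± 2687 CPM in Control (SD, n = 5), and miR-27a-3p at 307 ± 121 CPM in CR and 231 ± 43.8 CPM in Control. Of the 5p arms, miR-27b-5p averaged 124 CPM in both groups, and miR-27a-5p was below miR-130a-3p, at 9.02 CPM in CR and 8.14 CPM in Control. Of 4 rows tested, both arms counted, 0 passed, and 4 had log2 fold changes above 0 (3 without Control replicate 4). Of all tested miRNAs 48.3% were below 0, and 43.3% without that library. The 4 rows had a median of 0.17, or 0.0597 without Control replicate 4. In Control replicate 4 the 4 rows summed to 4699 CPM, the lowest of all libraries, against 7319 to 14608 CPM in CR and 9079 to 12330 CPM in the other Control libraries. Messenger RNAs such as that of PPARG are not measured by these libraries.

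**Figure D4:**
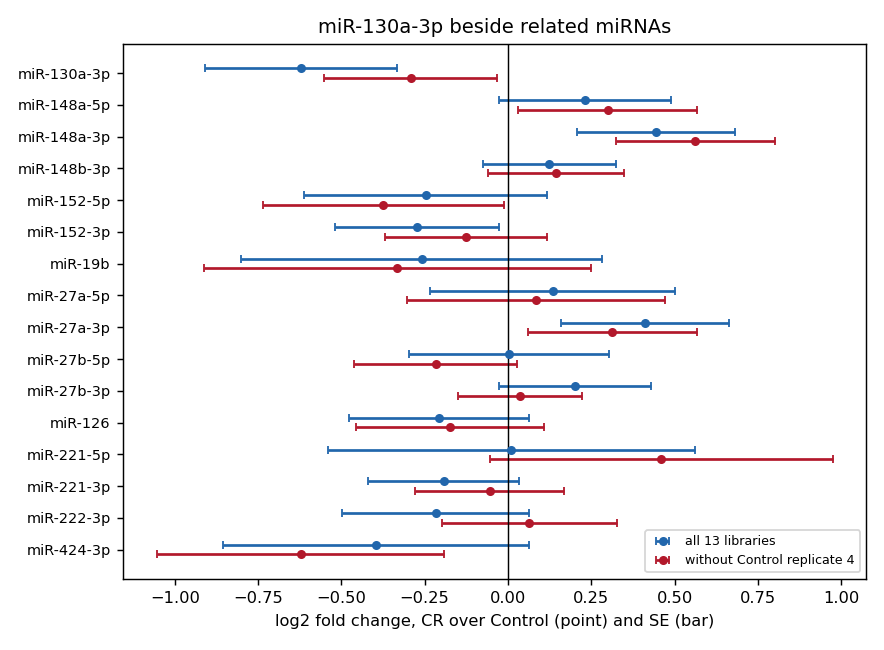
The log2 fold change, CR over Control, of miR-130a-3p and of the tested rows of miR-148, miR-152, miR-19, miR-27 and the endothelial list, with all 13 libraries (blue) and without Control replicate 4 (red). Points are estimates, bars are 1 SE, and no value passed the threshold. That of miR-130a-3p is the lowest plotted with all libraries, at -0.62. Without Control replicate 4 it is -0.29, and miR-424-3p (-0.62), miR-152-5p (-0.37) and miR-19b (-0.33) lie lower.

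The miRNAs most alike to miR-130a-3p were ranked by Pearson's r of log2 CPM over the 13 libraries, among 177 miRNAs outside the family with a mean of at least 10 CPM. All pairs share libraries and scaling factors, so r is a description here. The 5 highest were miR-195-5p (r 0.85, Spearman's rho 0.77), miR-193a-5p (0.77, rho 0.80), miR-222-3p (0.76, rho 0.55), miR-381-3p (0.75, rho 0.56) and miR-125b-2-3p (0.73, rho 0.82). miR-195 belongs to the miR-15/16 family, and miR-381 to the large imprinted DLK1-DIO3 cluster. Without Control replicate 4 the r of these 5 was 0.71, 0.70, 0.59, 0.42 and 0.74 in the same order. The likeness of miR-381-3p rested on Control replicate 4, where it stood at 881 CPM against 64.4 to 192 CPM in the other 12 libraries.

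Leaving out Control replicate 4 and CR replicate 1, the libraries farthest from the median of miR-130a-3p, gave r of 0.70, 0.65, 0.68, 0.27 and 0.71. When Control replicate 4 alone was left out, the 5 most alike were miR-146a-5p (r 0.78), miR-125b-2-3p, miR-195-5p, miR-193a-5p and miR-99a-3p (r 0.69), of which 3 were among the 5 from all libraries. The log2 fold change of miR-195-5p, CR over Control, was -0.47, and -0.16 without Control replicate 4. That of miR-125b-2-3p was -0.10, and -0.0649 without it. The other 3 of the 5 changed sign when it was left out, with -0.24 and then 0.0132 for miR-193a-5p, -0.22 and 0.0645 for miR-222-3p, and -1.16 and 0.18 for miR-381-3p.

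**Figure D5:**
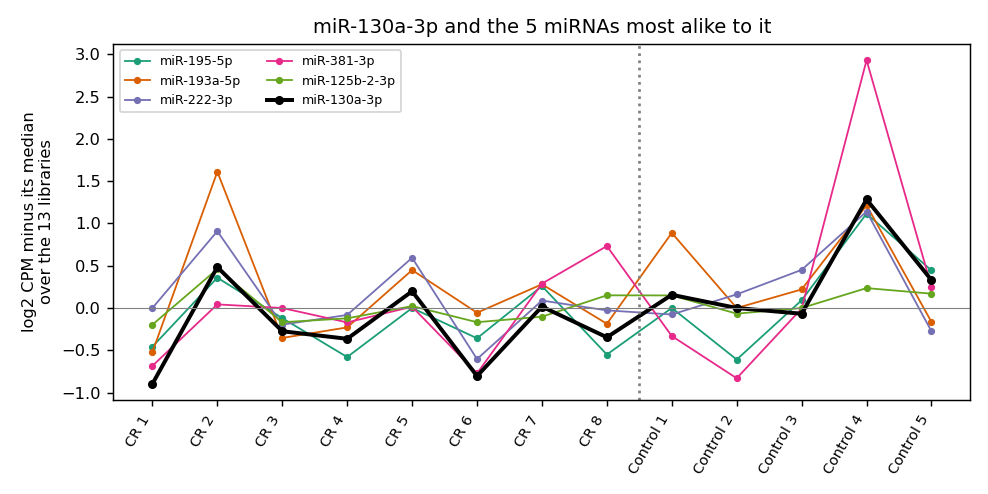
Log2 CPM of miR-130a-3p (black) and of the 5 miRNAs most alike to it, each minus its median over the 13 libraries, with the 8 CR libraries left of the dotted line and the 5 Control libraries right of it. In CR replicate 2 miR-130a-3p is 0.48 above its median, and in Control replicate 4 it is 1.28 above. miR-381-3p is 2.93 above its median in Control replicate 4.

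Within the family, miR-130a-3p and the rarer members did not follow one another closely. Over 13 libraries the r of CPM was 0.65 between miR-130a-3p and miR-130b-3p (rho 0.43) and -0.32 between miR-130a-3p and miR-301a-3p (rho -0.14). Without Control replicate 4 these were 0.39 (rho 0.28) and -0.0620 (rho 0). The arms of miR-130b had an r of 0.80 (rho 0.66), and 0.74 (rho 0.57) without Control replicate 4. The low rows hold few reads, so weak values among them say little.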

How the data were processed

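The authors deposited 1 table of raw read counts, whole numbers that sum to a different total in each library. Per the labels' protocols, RNA from Trizol was size-selected on a gel before the TruSeq small RNA kit. The submitters' processing notes name Mmul_8.0.1 as the build. Which aligner and counter were used is not given in the sources used here. Of 1703 rows, 702 are predicted loci (0.137 to 1.82% of a library's counts) and were left out. One row was kept for each of 67 repeated names, and 3 pairs with nearly the same counts were merged.

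The test was that of edgeR 4.0.16 in R 4.3.3 (robust quasi-likelihood fit, TMM factors of 0.624 to 1.76, filterByExpr), checked on simulated data. Log2 CPM used a prior count of 2. Alternatives were DESeq2 1.42.0, limma 3.58.1 (voom), other scalings and filters, summed copies, the replicate number as a block, and leaving out each library. Members, lists and the rule for named miRNAs (the family, seed relatives, miR-27, endothelial markers and the 5 most alike) were chosen with earlier results of these data known.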

Additional observations from a re-analysis of the deposited data

Results flagged for a closer look

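Control replicate 4 lay far from the other Control libraries in both measures of the family's level. Its miR-130a-3p stood at 134 CPM, where the next Control library had 69.1 CPM. The whole family was at 253 CPM without TMM factors, where the next Control library had 88.3 CPM. In each case the gap to the nearest library exceeded the critical share of the group's range, which chance alone passes in about 1 in 20 groups. Over 14 groups examined these 2 were found, and they measure nearly the same reads.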

How the results depend on the processing

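The log2 fold change of miR-130a-3p stayed below 0 in all 24 alternatives, from -1.03 (library totals alone) to -0.29 (without Control replicate 4), and did not pass the threshold in the 22 of them that give an adjusted p, at 0.705 to 1.00. Over single libraries left out it ran from -0.83 (without CR replicate 2) to -0.29. A two-sided exact permutation test of its log2 CPM, added after seeing the data, gave p = 0.0614 with all samples (n = 8 and 5) and p = 0.192 without Control replicate 4. The count of miRNAs past the threshold was 0 under every alternative in edgeR, DESeq2 and limma-voom, with 2 to 28 at an unadjusted p under 0.05. With the replicate number as a block the value of miR-130a-3p was -0.51 ± 0.39 (SE). No sign was seen that the numbers pair the samples, though 5 correlations cannot exclude it. Same-numbered libraries had correlations of deviations from -0.24 to -0.0474, and 0 of 5 correlated best with its own number. The block called 0 miRNAs. Over single libraries left out the 5p share difference of miR-130b ran from 3.02 to 8.46 percentage points. Mean levels ran from 44.3 to 51.1 CPM in CR and 59.4 to 79.9 CPM in Control for miR-130a-3p, 2.06 to 2.40 and 2.89 to 3.77 for miR-130b-3p, 1.86 to 2.14 and 2.11 to 2.79 for miR-130b-5p, and 1.47 to 1.76 and 1.24 to 1.62 for miR-301a-3p. Of the 5 miRNAs most alike, 3 were shared without Control replicate 4 and 3 with Spearman's rho. Depth limits every member but miR-130a-3p, since no other exceeded 41 counts in a library.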
